A study of Homo sapiens with 40 samples.

Results

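The 7 EZH2 mutant lines of the series, all established human lines of diffuse large B-cell lymphoma, were compared with each other as they stood under vehicle. A line was counted as sensitive when its growth IC50 for GSK126 in the labels (gIC50) was 448 nM or lower, and as less-sensitive when it was 582 nM or higher. This rule gave 4 sensitive lines, Pfeiffer (28 nM), WSU-DLCL2 (134 nM), KARPAS-422 (232 nM) and SU-DHL-10 (448 nM). The 3 less-sensitive lines were SU-DHL-6 (582 nM), DB (861 nM) and SU-DHL-4 (4828 nM). The arrays compared were the 14 DMSO arrays of these lines, 8 sensitive and 6 less-sensitive, out of 40 arrays from 10 lines. All of these cells had been kept in 0.1% DMSO for 72 h, so they were vehicle-treated rather than untreated, and every line of both groups is labelled EZH2 mutant. The same lines were also arrayed after 500 nM GSK126 for 72 h (14 arrays), and 3 lines wild type for EZH2 gave 6 further DMSO arrays. The labels do not say which EZH2 mutation each line carries. The line was the replicate, with 4 lines against 3.

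EZH2 is the catalytic subunit of Polycomb repressive complex 2 (PRC2), which methylates histone H3 at genes that are kept silent. In B cells it is most active in the germinal centre, where it holds back genes of cell cycle arrest and of plasma cell differentiation. Activating EZH2 mutations are frequent in germinal centre lymphomas, and GSK126 competes with the methyl donor of the enzyme. Lines that carry such mutations still differ in the dose that slows their growth, and the comparison asks whether expression before the drug separates them.

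The lines matched their label: all 7 B lineage markers (MS4A1, CD79A, CD79B, PAX5, EBF1, POU2AF1, BLK) lay above the array median on both arrays in 6 of the 7 lines, and 6 of 7 did in Pfeiffer. In Pfeiffer EBF1 was at a mean signal of 62.4, against 1424 to 5994 in the other lines, and CD79A at 405.6, against 6715 to 11801. Of the myeloid markers, CD14, LYZ, MPO and CD163 were above the median on no array and CSF1R on 1 array each of KARPAS-422 and SU-DHL-10. CSF3R, from the longer myeloid list, was above it on 12 of the 14 arrays; the 3 tested members of that list had a median difference of 0.28. Some markers of other tissues were high in 1 line, such as CD3D in KARPAS-422 (5162, at most 48.0 elsewhere) and EPCAM in Pfeiffer (12133, at most 27.3 elsewhere), and others in lines of both groups. The stromal marker DCN was at 14926 in KARPAS-422, 4953 in SU-DHL-4, 2450 in DB and 2191 in WSU-DLCL2, and at 76.4 to 139.9 in the other 3. LCK was at 1915 to 8635 in 5 lines, with 211.2 in Pfeiffer and 122.7 in KARPAS-422. The 8 T and NK cell markers had a mean signal of 55.5 to 1147 in sensitive lines and 268.2 to 770.9 in less-sensitive lines, LCK included. The part of these markers in the differences below was not tested. In such bulk RNA, fewer cells of a type and less RNA per cell cannot be told apart. The titles number the 2 arrays of each line as biological replicates, and nothing states whether they were separate cultures, so their spread may be technical.

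On average, vehicle profiles were no closer within the groups than across them. Across 14231 genes the 6 pairs of sensitive lines correlated at a mean Pearson r of 0.859 (0.822 to 0.926), the 3 pairs of less-sensitive lines at 0.890 (0.876 to 0.898), and the 12 pairs that cross the groups at 0.879 (0.834 to 0.940). The closest pair of all was WSU-DLCL2 and SU-DHL-4, at gIC50 values of 134 and 4828 nM, with r = 0.940 and 493 genes at least 4-fold apart. Pfeiffer and KARPAS-422, both sensitive, were the farthest apart, with r = 0.822 and 1634 such genes. Pfeiffer, WSU-DLCL2, SU-DHL-6 and SU-DHL-4 each had their nearest line in the other group. The mean distance (1 - r) across groups minus that within groups was -0.00935, that is, pairs across groups were slightly closer, and it was not distinguishable from 0 (exact permutation test over the 35 ways to take 4 of 7 lines, two-sided, p = 0.343). Of the 6 principal components, the third, with 16.5% of the variance, was the only one without overlap between the groups, and DB lay far from all other lines on it (-89.4, against -4.32 to 38.1).

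**Figure D1:**
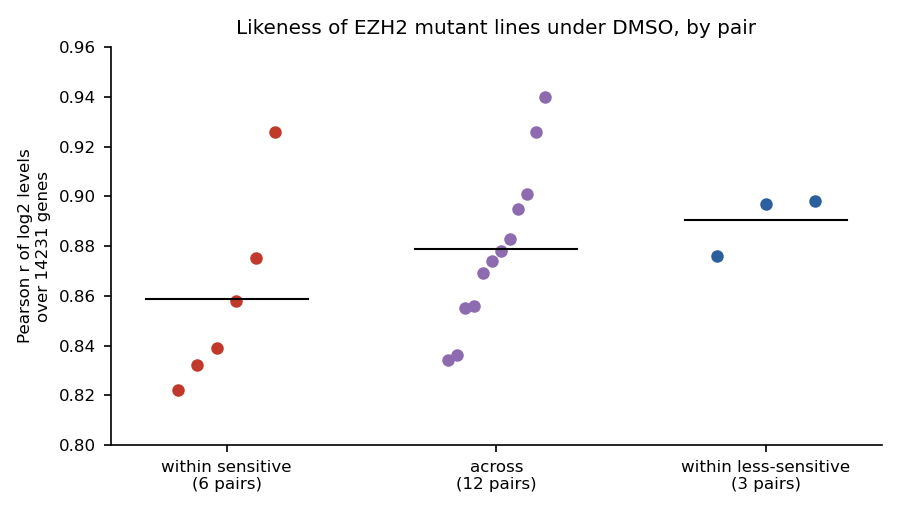
Pearson correlation of log2 levels over 14231 genes for each of the 21 pairs of EZH2 mutant lines under DMSO, by whether the pair lies within or across the groups; lines are means. The 12 pairs across groups span 0.834 to 0.940 and cover most of the range of the 6 pairs within the sensitive group (0.822 to 0.926).

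Single genes were compared with limma on the mean of the 2 arrays of each line, in units of log2(signal + 17.72), with Benjamini-Hochberg adjustment across the 14231 genes tested. The 2 arrays of a line had a median SD of 0.087 to 0.111 per gene, while the median SD was 0.468 over the sensitive lines and 0.398 over the less-sensitive lines, so the spread between lines set the error. HACD4, higher in sensitive lines, and NIBAN3, lower, passed an adjusted p of 0.05, which is 0.0141% of genes tested. At an unadjusted p under 0.05 there were 453 genes (3.18%), 247 higher (1.74%) and 206 lower (1.45%). In 332 genes (2.33%) every sensitive line lay above every less-sensitive line, and in 327 (2.3%) below, 4.63% in all; with arrays at equal medians this split was 380 and 243, whereas averaging a gene's probe sets gave 262 and 388. Such separation together with a difference of at least 1 log2 unit held for 91 genes higher (0.639%) and 76 lower (0.534%) in sensitive lines. The median difference of all genes was 0.013.

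HACD4 belongs to a family of dehydratases that act in the elongation of very long chain fatty acids. Its array signals under DMSO were 1552 and 1625 in Pfeiffer, 873.3 and 846.5 in WSU-DLCL2, 2230 and 2177 in KARPAS-422, and 3072 and 3457 in SU-DHL-10. In the less-sensitive lines they were 5.39 and 12.1 in SU-DHL-6, 27.86 and 17.97 in DB, and 34.97 and 17.92 in SU-DHL-4. The gene was thus bright on all 8 sensitive arrays and near the bottom of the scale on all 6 others. The sensitive lines averaged 10.805 ± 0.80 (SD, n = 4) on the log2 scale and the less-sensitive lines 5.16 ± 0.39 (SD, n = 3). The difference of 5.64 ± 0.47 (SE) had an adjusted p of 0.0371. The probe set was above the array median on the 8 sensitive arrays only, so the gene entered the test through the group in which it was high, and without the filter on dim genes its adjusted p was 0.0622. A second probe set of the gene lay above the array median on 0 of the 14 arrays and differed by -0.06, and with the mean of both probe sets the difference was 2.79 (adjusted p = 0.103). The call was kept without WSU-DLCL2 (adjusted p = 0.0415) and lost without any other line. The adjusted p was then 0.0782 without Pfeiffer, 0.115 without KARPAS-422, 0.175 without SU-DHL-10, 0.127 without SU-DHL-6, 0.190 without DB and 0.186 without SU-DHL-4. Within the lines that carry the description tag R7, 2 in each group, the difference was 5.34 (adjusted p = 0.403). The nearest tested genes in the RefSeq order, FOCAD (1.22) and MLLT3 (1.04), overlapped between the groups, as did 9 of the 10 tested genes among its 20 neighbours; the interferon gene IFNA17 (-0.49) was lower in every sensitive line.

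NIBAN3 encodes a member of the niban family that is found mainly in B cells. Its signals were 75.2 and 112.3 in Pfeiffer, 126.6 and 131.9 in WSU-DLCL2, 74.5 and 151.8 in KARPAS-422, and 69.4 and 110.3 in SU-DHL-10. They were 3137 and 2567 in SU-DHL-6, 1312 and 1345 in DB, and 1456 and 1494 in SU-DHL-4. Every less-sensitive array was thus far above every sensitive one. The group means were 6.92 ± 0.215 (SD, n = 4) and 10.81 ± 0.59 (SD, n = 3), a difference of -3.89 ± 0.34 (SE; adjusted p = 0.0371). The 2 other probe sets of NIBAN3 also separated the groups, with differences of -3.81 and -1.81. The call was kept without SU-DHL-6 (adjusted p = 0.0462). It was lost without the filter (adjusted p = 0.0622) and with the wild type lines in the fit (adjusted p = 1), where HACD4 and GSDMD were the 2 genes called. The adjusted p was 0.0782 without Pfeiffer, 0.128 without WSU-DLCL2, 0.115 without KARPAS-422, 0.260 without SU-DHL-10, 0.190 without DB and 0.186 without SU-DHL-4, and 0.320 within the R7 lines, where the difference was -3.51. Its neighbour COLGALT1 was also lower in every sensitive line, by a difference of only -0.44, and 15 of the 16 tested genes among its 20 neighbours overlapped. The 250 bases before the start of both genes are given because these were the genes that passed the test; they come from RefSeq (GRCh38.p14), at chr9:21031641-21031890 on the minus strand and chr19:17523051-17523300 on the plus strand, each written 5′ to 3′ in the direction of its gene.
HACD4: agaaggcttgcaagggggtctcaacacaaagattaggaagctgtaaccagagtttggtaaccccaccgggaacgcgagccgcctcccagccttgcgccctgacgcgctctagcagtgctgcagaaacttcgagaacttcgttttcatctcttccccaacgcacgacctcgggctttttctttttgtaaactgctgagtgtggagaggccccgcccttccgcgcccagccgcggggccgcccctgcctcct
NIBAN3: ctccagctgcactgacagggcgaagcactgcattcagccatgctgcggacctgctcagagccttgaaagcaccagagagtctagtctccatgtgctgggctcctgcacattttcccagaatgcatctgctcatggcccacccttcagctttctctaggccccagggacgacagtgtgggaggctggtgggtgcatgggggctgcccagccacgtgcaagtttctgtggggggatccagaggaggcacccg
The ratio of observed to expected CpG was 0.82 in the HACD4 window and 0.22 in the NIBAN3 window, against a median of 0.80 over the 11392 tested genes with a promoter in the table.

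The other leading genes did not pass the test and are given as values. They were taken in order of p among genes without overlap and with a difference of at least 1, up to 15 in each direction. GSDMD, whose cleaved product opens membrane pores in pyroptosis, came nearest. Its line means were 9.37 (Pfeiffer), 8.50 (WSU-DLCL2), 8.08 (KARPAS-422) and 8.89 (SU-DHL-10), against 5.19 in SU-DHL-6, 5.02 in DB and 5.39 in SU-DHL-4. The difference was 3.51 ± 0.36 (adjusted p = 0.0777), and GSDMD passed in 6 of 23 alternatives. These included quantile normalization, equal medians and a pseudocount of 1. It did not pass when any 1 line was left out (adjusted p 0.0782 to 0.419) or with a pseudocount of 64 (0.269). The adjusted p was 0.320 within the R7 lines and 0.739 with the R tag as a block. Its probe set was above the array median on the 8 sensitive arrays only, and without the filter the adjusted p was 0.105. CGAS, the cytosolic DNA sensor that feeds the interferon response, was at 7.92 to 8.85 in sensitive lines and 4.55 to 6.30 in less-sensitive lines, a difference of 3.05 ± 0.45 (adjusted p = 0.514). FAS, a death receptor of germinal centre B cells, was at 8.59 to 11.88 against 5.19 to 7.82 (3.67 ± 0.87, adjusted p = 0.999). Its 3 other bright probe sets differed by 3.29 to 3.47, all without overlap.

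Further genes of this group differed in their spread. TOR1AIP1, an inner nuclear membrane protein that binds lamins, was at 11.31 to 11.57 against 10.13 to 10.38 (1.16 ± 0.20). Its other probe sets above the array median on all 14 arrays differed by 0.94 without overlap and by 0.91 with overlap. MAFF, a small MAF transcription factor, was at 8.04 to 9.65 against 5.54 to 6.70 (2.78 ± 0.48), although its second probe set overlapped. The homeobox gene MSX1 was at 7.36 to 9.73 against 5.52 to 6.37 (2.96 ± 0.59), and its second probe set differed by 0.30 with overlap. UBE2L6, the conjugating enzyme for ISG15, was at 8.87 to 12.30 against 7.36 to 7.85 (3.22 ± 0.77). The transporter gene SLC12A8 differed by 3.41, the zinc finger gene ZNF256 by 2.72, LOC100310756 by 2.33, the long noncoding RNA CYTOR by 2.17 and the ciliary gene TCTN1 by 1.20. A second TCTN1 probe set differed by 0.58 with overlap. FTH1P5, a ferritin heavy chain pseudogene whose probes may also bind ferritin mRNA, differed by 1.52. SLC12A8 was above the array median on only 8 of the 14 arrays, and CGAS, MSX1, CYTOR and ZNF256 on 9. Such genes could enter the test mainly through the sensitive lines. The unadjusted p of the 15 leading higher genes, HACD4 included, ran from 4.26e-06 to 0.00433.

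The genes that led in the other direction did not pass the test either, apart from NIBAN3. TCL1A, a coactivator of AKT that is high in naive and germinal centre B cells, had line means of 10.08 (Pfeiffer), 6.31 (WSU-DLCL2), 7.53 (KARPAS-422) and 9.63 (SU-DHL-10). It was at 13.11 in SU-DHL-6, 12.88 in DB and 12.73 in SU-DHL-4. The less-sensitive lines were thus all high and close together while the sensitive lines were scattered below them, with a difference of -4.52 ± 0.89 (adjusted p = 0.999) and -4.87 on a second probe set. CNR1, the cannabinoid receptor of brain that B cells also express, was at 4.97 to 8.47 in sensitive lines and 11.10 to 11.70 in less-sensitive lines (-4.63 ± 0.80, adjusted p = 0.779). All 4 of its probe sets were without overlap. The lectin-like gene CLECL1 was at 5.71 to 8.72 against 10.44 to 10.69 (-3.46 ± 0.76), and PPM1E, a protein phosphatase, at 5.79 to 7.53 against 9.59 to 10.67 (-3.56 ± 0.50).

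ENTPD1, the ectonucleotidase CD39, was at 6.48 to 7.27 against 7.82 to 9.17 (-1.80 ± 0.40), and its 3 other probe sets differed by -1.67 to -2.31. TNFSF8, the CD30 ligand, was at 5.25 to 8.32 against 9.14 to 9.79 (-2.94 ± 0.71). The chitinase-like gene CHI3L2 differed by -3.15, the noncoding RNA LINC00926 by -3.10, CCDC141 by -3.02, TMTC2, a mannosyltransferase gene of the endoplasmic reticulum, by -2.79, and C1orf162 by -2.20. CCNT2-AS1 (-1.74), an antisense RNA, was at 4.44 to 4.89 against 6.26 to 6.52, near the bottom of the scale in sensitive lines. PCOLCE, an enhancer of procollagen processing, differed by -1.61 and LOC286437 by -1.02. CCNT2-AS1 and CCDC141 were above the array median on only 4 of the 14 arrays, C1orf162 on 6 and PCOLCE on 7. Such genes could enter the test mainly through the less-sensitive lines, where they were higher. Over the 15 leading lower genes, NIBAN3 included, the unadjusted p ran from 5.21e-06 to 0.00424.

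**Figure D2:**
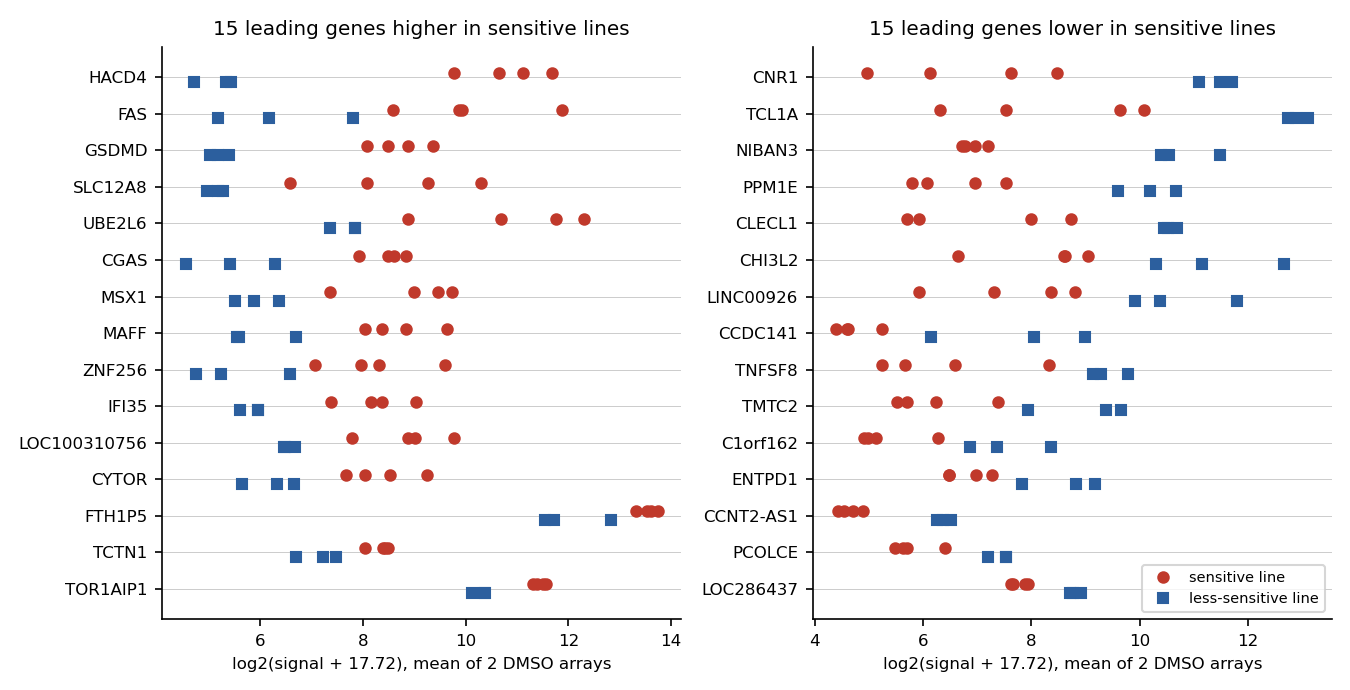
Line means under DMSO, in log2(signal + 17.72), of the 15 leading genes in each direction; circles are the 4 sensitive lines and squares the 3 less-sensitive lines. HACD4 shows the widest gap among genes higher in sensitive lines, and TCL1A and CNR1 show tight less-sensitive lines at 12.73 to 13.11 and 11.10 to 11.70 above scattered sensitive lines.

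The GSK126 arrays come from the same 7 lines and give a second reading of the same contrast on other arrays. Of the 332 genes without overlap that were higher in sensitive lines under DMSO, 136 (41.0%) were again without overlap on the same side, and of the 327 lower genes 121 (37.0%); under GSK126 405 genes were higher without overlap (2.85%) and 287 lower (2.02%), 4.86% in all. All 15 leading genes in each direction kept the sign, and 13 of 15 in each direction were again without overlap. HACD4 differed by 5.45 ± 0.35 under GSK126 (adjusted p = 0.00818) and was the 1 gene called there (0.00703%), with 471 (3.31%) at an unadjusted p under 0.05. For NIBAN3 the difference was -3.05 ± 0.48 (adjusted p = 0.488) and for GSDMD 3.91 ± 0.40 (adjusted p = 0.117).

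The GSK126 response shares its DMSO arrays with the vehicle comparison, so the 2 are only set side by side. The TCL1A level under GSK126 minus that under DMSO was 1.29 (Pfeiffer), 4.88 (WSU-DLCL2), 3.07 (KARPAS-422) and 1.90 (SU-DHL-10). The response was 0.33 in SU-DHL-6, 0.14 in DB and 0.21 in SU-DHL-4, the lines in which TCL1A was already high under DMSO. The difference between the groups' TCL1A responses, 2.56 ± 0.84, had an adjusted p of 0.883, and its gap between groups was -1.96 under GSK126 against -4.52 under DMSO. For NIBAN3 the mean response was 0.74 in sensitive and -0.10 in less-sensitive lines (difference 0.84 ± 0.29, adjusted p = 0.883), and for CNR1 1.90 and 0.43 (1.47 ± 0.68, adjusted p = 0.883). The mean HACD4 response was 0.31 in sensitive and 0.51 in less-sensitive lines. No gene's response differed between the groups in limma at an adjusted p of 0.05 (0 of 14231), and 681 (4.79%) did so at an unadjusted p under 0.05. Of the 15 leading genes in each direction, 13 of the lower and 10 of the higher had a smaller difference under GSK126 than under DMSO. These genes, TCL1A, NIBAN3 and CNR1 included, were picked on the DMSO arrays for a large difference without overlap. That choice favours somewhat smaller differences on any other arrays, so the count cannot tell it apart from the drug. The 2 DMSO arrays of a line had a median SD of 0.087 to 0.111 per gene. How much of the change in a single gene such as TCL1A came from the choice was not tested.

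**Figure D3:**
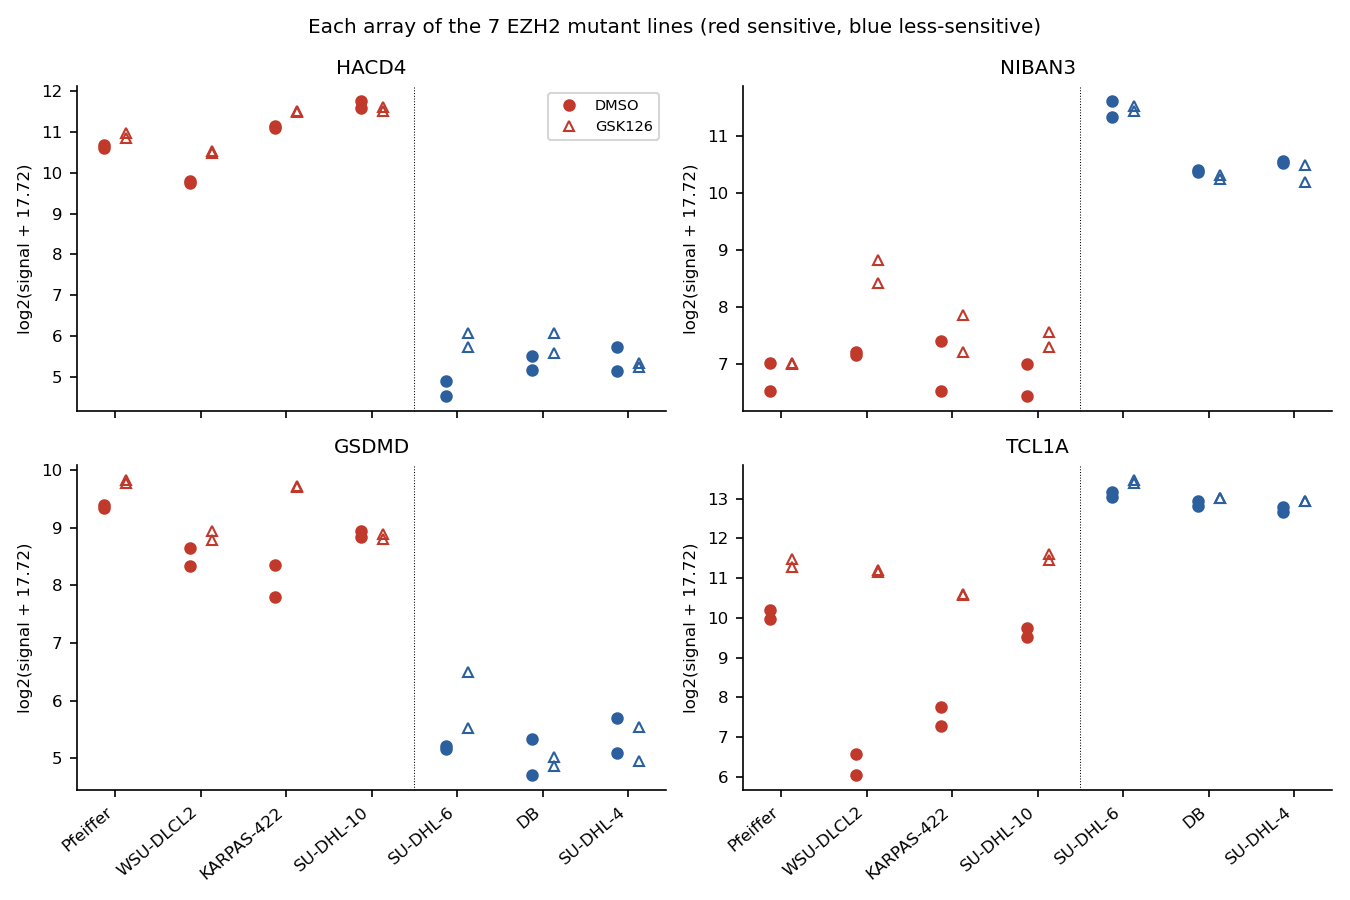
Level on each array of the 7 mutant lines, log2(signal + 17.72), for HACD4, NIBAN3, GSDMD and TCL1A, with filled circles for DMSO and open triangles for GSK126; lines are in order of gIC50. The sensitive and less-sensitive lines stay apart for all 4 genes under both treatments, while TCL1A in WSU-DLCL2 goes from 6.04 and 6.57 under DMSO to 11.16 and 11.21 under GSK126.

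Genes induced by interferon held several members that were higher in sensitive lines. Of the 37 list members tested, 10 were higher and 0 lower at an unadjusted p under 0.05, where 1.74% of all genes were higher, and none passed adjustment. The list's median difference was 0.84, against 0.013 for all genes, and 78.4% of its members were above 0. Only 24 members lay above the array median on both arrays of at least 3 lines, and the others entered the test through fewer lines. Among these 24 the median was 0.46, with 6 higher and 0 lower at the same threshold. Under that filter 206 of all 11418 genes were higher and 165 lower. IFI35 was at 9.04 (Pfeiffer), 7.37 (WSU-DLCL2), 8.16 (KARPAS-422) and 8.37 (SU-DHL-10), against 5.96 in SU-DHL-6, 5.96 in DB and 5.60 in SU-DHL-4, a difference of 2.39 ± 0.41 (adjusted p = 0.779). All 4 sensitive lines were above all 3 others. The probe set was above the array median on the 8 sensitive arrays only, so IFI35 entered the test through the group in which it was high. LGALS3BP, a secreted glycoprotein, differed by 1.70 ± 0.57, the RNA sensor IFIH1 by 2.87 ± 0.98, IFI6 by 3.38 ± 1.31 and DDX60 by 1.20 ± 0.46, again without overlap. The other members under the threshold, OAS3, HERC6, BST2, USP18 and ISG15, overlapped between the groups. GBP2 (-0.46) and TRIM22 (-1.63) were lower in every sensitive line, and TRIM22 was at 7.36 in Pfeiffer against 11.41 to 12.21 in the 6 other lines.

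The list's median rested largely on KARPAS-422. The mean level of the 37 genes was 9.25 in KARPAS-422, 7.84 in Pfeiffer, 7.95 in SU-DHL-10 and 7.02 in WSU-DLCL2, against 6.67 in SU-DHL-6, 7.25 in DB and 7.25 in SU-DHL-4. WSU-DLCL2 thus lay below DB and SU-DHL-4, and the groups overlapped. Without KARPAS-422 the median difference was 0.13, with 5 members higher and 0 lower. Without WSU-DLCL2 the median was 1.005, with 11 higher and 0 lower. Without Pfeiffer 5 were higher and 1 lower, without SU-DHL-10 6 and 0, without SU-DHL-6 2 and 0, without DB 2 and 0, and without SU-DHL-4 4 and 0. Within the R7 lines the median was 0.075, with 4 higher and 1 lower, and with the R tag as a block 2 were higher and 0 lower. In KARPAS-422 MX1 was at 12.78 and IFIT1 at 9.46, against 4.74 to 9.37 and 4.51 to 4.81 in the 6 other mutant lines. Under GSK126 11 members of the list were higher without overlap and 0 lower, against 5 and 2 under DMSO; over all genes these shares were 2.85% and 2.02%, and 2.33% and 2.3%. KARPAS-422 also had the largest response in several of them: IFI35 was higher by 4.27 there and between -0.46 and 0.66 in the 6 other lines, and DDX60 by 4.79 and between -0.22 and 0.63.

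The promoters of 3 of these genes are given as examples that hold the motif of interferon-induced genes, and they were chosen after the matches were seen. The motif searched was the interferon-stimulated response element, spelled as GAAA, then 2 bases of any kind, then GAAA, on both strands of the 250 bases before the start, with overlapping matches counted; bases of a match are in capitals. The windows are chr1:27672193-27672442, chr2:162318685-162318934 and chr17:78979924-78980173 (RefSeq, GRCh38.p14), all on the minus strand and written 5′ to 3′ along the gene.
IFI6: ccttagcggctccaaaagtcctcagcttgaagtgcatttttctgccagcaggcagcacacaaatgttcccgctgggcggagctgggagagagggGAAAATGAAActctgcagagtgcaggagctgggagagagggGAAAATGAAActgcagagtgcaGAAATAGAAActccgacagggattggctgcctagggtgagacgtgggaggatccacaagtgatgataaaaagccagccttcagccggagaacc
IFIH1: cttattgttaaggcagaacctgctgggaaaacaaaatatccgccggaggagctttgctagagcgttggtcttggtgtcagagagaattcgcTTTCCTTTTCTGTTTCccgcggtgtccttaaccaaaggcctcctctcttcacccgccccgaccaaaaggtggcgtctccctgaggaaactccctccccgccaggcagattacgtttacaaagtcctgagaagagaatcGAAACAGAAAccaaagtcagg
LGALS3BP: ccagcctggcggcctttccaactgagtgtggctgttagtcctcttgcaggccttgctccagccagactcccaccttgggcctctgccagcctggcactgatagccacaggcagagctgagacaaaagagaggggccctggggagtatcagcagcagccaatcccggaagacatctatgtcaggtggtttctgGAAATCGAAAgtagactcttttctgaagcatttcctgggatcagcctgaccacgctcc
IFI6 held 3 matches, IFIH1 3, of which 2 overlap, and LGALS3BP 1, while DDX60 held 2 and IFI35 held 0. Of the 28 list members with a promoter in the table, 18 (64.3%) held a match, against 2.42% of tested genes and 3.07% of all RefSeq promoters there. Of the 11 leading higher genes with a promoter, 0 held one, HACD4 included. Of the 10 leading lower genes, 1 (10.0%), CCNT2-AS1, did. Among genes without overlap the share was 4.07% of those higher and 1.92% of those lower in sensitive lines.

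**Figure D4:**
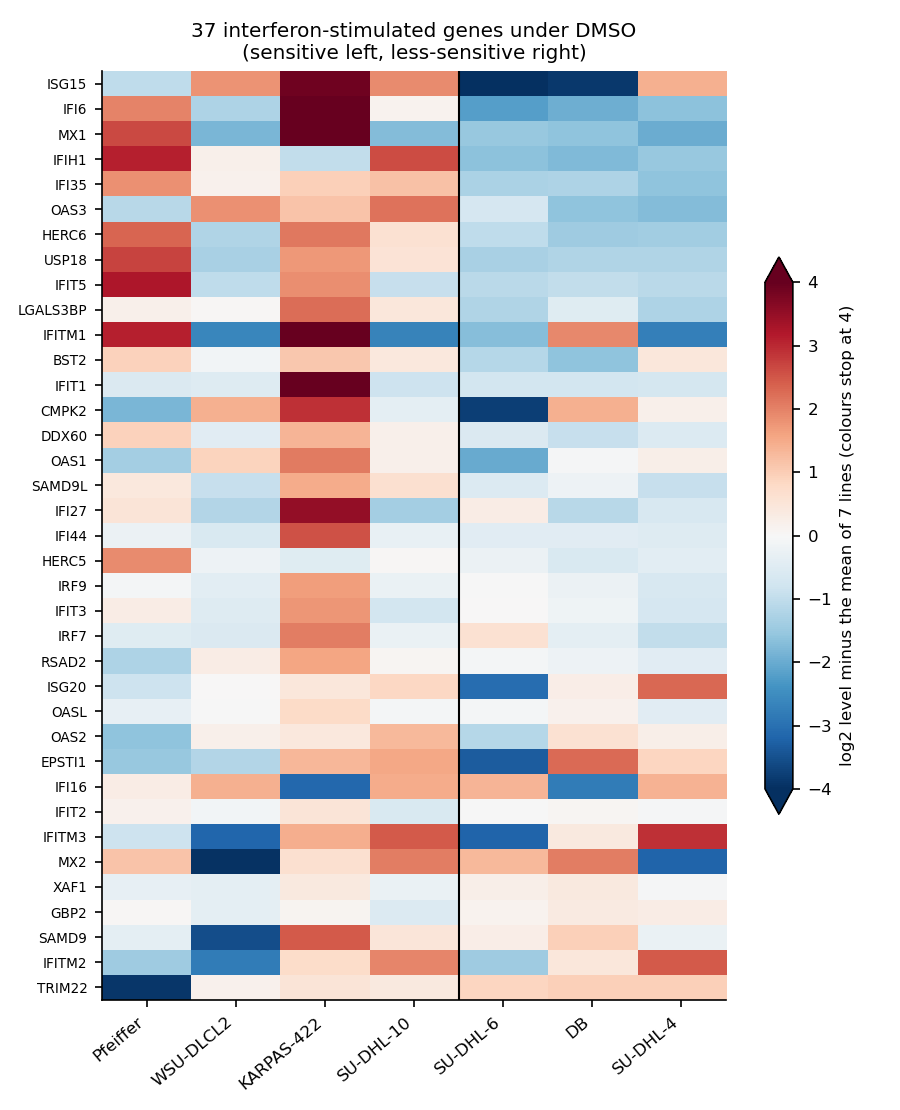
Levels of the 37 tested interferon-stimulated genes under DMSO, each as the log2 level minus its mean over the 7 mutant lines, with genes in order of their difference and the 4 sensitive lines left of the black line. KARPAS-422 is high for most genes, with a list mean of 9.25, whereas WSU-DLCL2, at 7.02, resembles the less-sensitive lines (6.67 to 7.25) for many of them.

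Antigen presentation genes had medians above 0 as well, at values that depended on DB. The median difference was 1.07 over the 16 tested genes of MHC class I and antigen processing. At an unadjusted p under 0.05, 2 were higher and 0 lower (all genes 1.74% and 1.45%), and none passed adjustment. The 2 higher were the immunoproteasome subunits PSMB8 (1.37 ± 0.52) and PSMB9 (1.54 ± 0.59), which overlapped between the groups. HLA-B was at 11.54 to 14.18 in sensitive lines, and at 12.77 in SU-DHL-6, 10.96 in SU-DHL-4 and 8.44 in DB. The level in SU-DHL-6 thus lay within the sensitive range while DB was lowest of all 7. Without DB the list's median was 0.53, and without Pfeiffer it was 0.69. Without WSU-DLCL2 4 members were higher and 0 lower, and without SU-DHL-6 4 and 1. Without Pfeiffer, KARPAS-422 or SU-DHL-10, 0 members were under the threshold in either direction.

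For MHC class II the median over 16 genes was 0.58. At an unadjusted p under 0.05, 2 were higher and 0 lower (all genes 1.74% and 1.45%), and none passed adjustment. CTSS, the protease that trims the invariant chain, was at 10.57 to 12.04 against 10.31 to 10.40 (1.05 ± 0.37). CIITA, the master activator of class II genes, was at 11.05 (Pfeiffer), 7.74 (WSU-DLCL2), 8.63 (KARPAS-422) and 8.44 (SU-DHL-10), against 7.44 in SU-DHL-6, 5.19 in DB and 6.96 in SU-DHL-4 (2.43 ± 0.87). On these probe sets CTSS and CIITA were again without overlap under GSK126, at differences of 1.23 and 2.90. Another CIITA probe set, above the array median on all 14 arrays, differed under DMSO by -0.11 with overlap. A further, dimmer probe set differed by 0.93 with overlap. With the mean of all probe sets 1 member of the list was higher and 0 lower at the unadjusted threshold, with a median of 0.52. The class II molecules themselves overlapped: HLA-DRA was at 13.23 to 14.67 in sensitive lines, 14.28 in SU-DHL-6, 13.39 in SU-DHL-4 and 6.63 in DB. Without DB the class II median was -0.03 and 0 members were under the threshold, while without SU-DHL-6 it was 0.90 with 3 higher, and without SU-DHL-4 0.88 with 1 higher.

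Genes of NF-kB and of immediate early activation showed members that were higher in sensitive lines. Of 22 NF-kB target genes tested, 3 were higher and 0 lower at an unadjusted p under 0.05 (all genes 1.74% and 1.45%), none passed adjustment, and the median difference was 0.63. It was 0.11 without Pfeiffer and 0.34 without SU-DHL-6. The count of higher members was 4 without Pfeiffer, 2 without WSU-DLCL2 and 1 without SU-DHL-10, DB or SU-DHL-4. TRAF1, an adaptor of TNF receptors, was at 8.53 to 9.45 against 6.82 to 8.32 (1.30 ± 0.42), without overlap. Its second probe set differed by 0.61 with overlap. TNF itself was at 8.92 to 12.58 in sensitive lines, 9.99 in SU-DHL-6, 6.23 in DB and 5.66 in SU-DHL-4 (3.27 ± 1.25), and LTA, a cytokine of the same family, differed by 3.72 ± 1.43. SU-DHL-6 thus lay within the sensitive range for TNF, and the other 2 less-sensitive lines below it. In the list of memory and activated B cell genes (23 tested, 2 higher, 0 lower, median 0.23) the 2 under the same threshold were the immediate early factors EGR1 and FOS. That median was -0.06 without Pfeiffer or WSU-DLCL2 and 0 without DB. It was -0.16 among the 16 members above the array median on both arrays of at least 3 lines, with 2 higher and 0 lower. Of all members tested, 1 was higher without WSU-DLCL2, SU-DHL-10, DB or SU-DHL-4, and 1 was lower without WSU-DLCL2 or DB. EGR1 was at 10.08 to 11.84 in sensitive lines and at 10.05 in SU-DHL-6, 7.07 in DB and 6.62 in SU-DHL-4 (2.94 ± 0.86). FOS was at 4.56 in Pfeiffer and 7.65 to 8.27 in the 3 other sensitive lines, against 4.42 to 4.89 (2.45 ± 0.87).

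Markers of B cell stage differed gene by gene. Of 20 germinal centre genes tested, 3 were lower and 0 higher in sensitive lines at an unadjusted p under 0.05 (all genes 1.45% and 1.74%), none passed adjustment, and the median difference was -0.22. The count of lower members was 1 without Pfeiffer, KARPAS-422, SU-DHL-10 or SU-DHL-4 and 2 without SU-DHL-6 or DB. In the R7 lines 3 were higher and 1 lower, with a median of 0.19. Beside TCL1A these were BACH2, a repressor that delays plasma cell fate, and the ectoenzyme CD38. BACH2 was at 5.76 in Pfeiffer, 6.46 in KARPAS-422 and 6.27 in SU-DHL-10 but at 11.27 in WSU-DLCL2, against 10.46 to 11.78 in less-sensitive lines (-3.61 ± 1.30). CD38 had the same order, with WSU-DLCL2 at 10.80 and the 3 other sensitive lines at 5.21 to 6.39, against 8.66 to 12.24 (-3.72 ± 1.47). WSU-DLCL2 thus fell among the less-sensitive lines for both. Markers of the stage overlapped: BCL6 was at 13.50 to 13.87 against 13.20 to 13.59 (0.27 ± 0.15), and MME, which encodes CD10, at 9.69 to 12.60 against 9.71 to 12.26 (0.10 ± 0.79). Other markers varied widely between lines. By mean signal SERPINA9 was at 35.5 in Pfeiffer and 1375 to 5803 elsewhere, and MYBL1 at 535.4 and 3160 to 6380. LMO2 ran from 93.7 in KARPAS-422 to 13315 in SU-DHL-10. Pfeiffer had the lowest mean level over the 20 genes, 9.73, against 10.27 to 12.15 in the other lines.

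Of 20 plasma cell genes tested, 2 were lower and 0 higher at the same unadjusted threshold (all genes 1.45% and 1.74%), and none passed adjustment. The 2 lower were CD38 and the zinc finger gene ZBTB20 (6.05 to 6.41 against 6.92 to 9.17, -1.85 ± 0.51). The median was 0.18, but -0.42 without Pfeiffer and -0.12 without DB; 1 member was lower without SU-DHL-4, SU-DHL-6, SU-DHL-10 or KARPAS-422, and 2 were higher and 2 lower without WSU-DLCL2. PRDM1, which drives plasma cell differentiation, differed by 0.70 ± 0.68, and IRF4 by -0.23 ± 1.44, with Pfeiffer at 11.07 and SU-DHL-6 at 10.75 as the high lines of each group. In the 8 tested Fc receptor-like and Fc receptor genes the median difference was -0.78 and 12.5% of members were above 0. This rested on Pfeiffer, whose list mean was 6.24 against 9.09 to 10.46 in the other lines: without it the median was -0.09, with 1 member higher and 1 lower, and in the R7 lines it was -0.45. Without KARPAS-422 it was -1.21, with 2 lower, and 0 were lower without SU-DHL-6 or DB. FCRL3, which modulates B cell receptor signals, was at 6.91 to 10.81 against 10.30 to 13.58 (-3.15 ± 1.10, unadjusted p = 0.0223), and no other member was under the threshold.

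No gene of PRC2 passed the test. EZH2 was at 11.79 (Pfeiffer), 11.70 (WSU-DLCL2), 11.68 (KARPAS-422) and 12.33 (SU-DHL-10), against 11.84 in SU-DHL-6, 11.55 in DB and 11.89 in SU-DHL-4 (0.12 ± 0.23, unadjusted p = 0.619). The ranges overlapped and SU-DHL-10 alone stood higher. SUZ12 differed by 0.08 ± 0.18 and EED by 0.04 ± 0.40, both core partners of EZH2. EZH1, the other catalytic subunit, was at 9.95 to 10.17 against 10.18 to 10.27, so the groups touched without overlap, with a difference of -0.18 ± 0.21. Its other probe sets differed by -0.41 to -0.03, all with overlap. The H3K27 demethylases KDM6A (0.17 ± 0.30) and KDM6B (-0.16 ± 0.44) overlapped. Of the 16 genes of this list 0 were under an unadjusted p of 0.05, and of the 17 tested PRC1 and CBX genes likewise 0. Of all genes 3.18% were, so a count of 0 in lists this small says little about their members.

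Of 29 other chromatin regulators tested, 1 was higher and 3 lower at an unadjusted p under 0.05 (all genes 1.74% and 1.45%), none passed adjustment, and the median was -0.20. The count of lower members was 1 without DB or SU-DHL-4 and 2 without SU-DHL-6, SU-DHL-10, KARPAS-422 or WSU-DLCL2, and without SU-DHL-4 2 were higher. TET2, which oxidises methylated cytosine, was at 7.89 to 9.30 against 5.17 to 8.02 (2.14 ± 0.67). The 3 lower members were ARID1B (-0.80 ± 0.23) and SMARCA4 (-0.61 ± 0.23), subunits of SWI/SNF remodelling complexes, and UHRF1, a reader of newly replicated DNA methylation (-0.57 ± 0.22). ARID1B was nearly constant in the less-sensitive lines, at 10.47 to 10.50, and at 9.45 to 10.01 in the sensitive lines. Its other probe sets above the array median on all 14 arrays differed by -0.68 to 0.15. Of those, all but the 1 at -0.60 overlapped between the groups.

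Cell cycle and death genes gave few differences. Of 30 mitosis genes 0 were under an unadjusted p of 0.05, where 3.18% of all genes were. Yet 16.7% of the mitosis genes were above 0, against 51.4% of all genes. Their median was -0.18, so that most had differences below 0. BIRC5 was at 12.15 to 12.39 against 12.52 to 12.65 (-0.32 ± 0.15), without overlap. Its other probe sets differed by -0.46 to -0.18, all with overlap. Of 32 DNA replication genes 2 were higher and 0 lower at an unadjusted p under 0.05 (all genes 1.74% and 1.45%), and none passed adjustment. They were the licensing factor CDT1 (0.81 ± 0.25) and the helicase component CDC45 (0.92 ± 0.38), both without overlap, as were 2.33% of all genes in this direction. A second CDT1 probe set, above the array median on all 14 arrays, differed by 0.60 with overlap. Without WSU-DLCL2 5 of the replication genes were under the unadjusted threshold, and without SU-DHL-4, SU-DHL-6, SU-DHL-10, KARPAS-422 or Pfeiffer 1 was. CDT1 overlapped under GSK126 (0.36), and so did CDC45 (0.47). MYC was at 12.33 to 13.17 against 12.52 to 13.41 (-0.34 ± 0.29), CDKN1A differed by -0.04 ± 1.05 and CDKN2A by 0.56 ± 0.93. BCL2, the apoptosis inhibitor, was high in 1 line of each group, at 13.32 in WSU-DLCL2 and 12.19 in DB, and at 5.71 to 6.25 in the 5 others.

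Single members stood out in other lists. NQO1, a quinone reductase of the oxidative stress response, was at 8.88 to 11.75 against 7.87 to 8.56 (2.41 ± 0.64, unadjusted p = 0.00645) and again without overlap under GSK126 (2.50). ITGB2, the common chain of the leukocyte integrins, was at 12.09 to 12.76 in 3 sensitive lines but at 6.39 in Pfeiffer, against 4.89 to 8.53 (4.65 ± 1.69). PTPN6, the phosphatase SHP-1, differed by 2.38 ± 1.01 with overlap and was without overlap under GSK126. TXNIP, an inhibitor of thioredoxin, was at 7.01 to 12.27 against 9.71 to 11.70 (-0.54 ± 1.20), and the death receptor TNFRSF21 was high in Pfeiffer (7.76), DB (9.13) and SU-DHL-4 (8.07) and at 4.69 to 5.16 in the other 4 (-1.87 ± 1.10). ABCB1, the drug efflux pump, did not pass the filter on dim genes. SOX2 (-1.05) and TRBC1 (-1.05) were lower without overlap and TGFBR1 (-1.09) lower with overlap, each as the 1 lower member of its list. The other SOX2 probe sets differed by -1.30 to 0.08 and those of TRBC1 by -0.85 and -1.73, all with overlap. For TGFBR1 another probe set was without overlap (-0.81). No member was under an unadjusted p of 0.05 in the lists of HOX genes, CDK inhibitors, cyclins, MYC targets, the BCL2 family, B cell identity, sterol synthesis, glycolysis, amino acid stress or heat shock. The share over all genes was 3.18%.

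**Figure D5:**
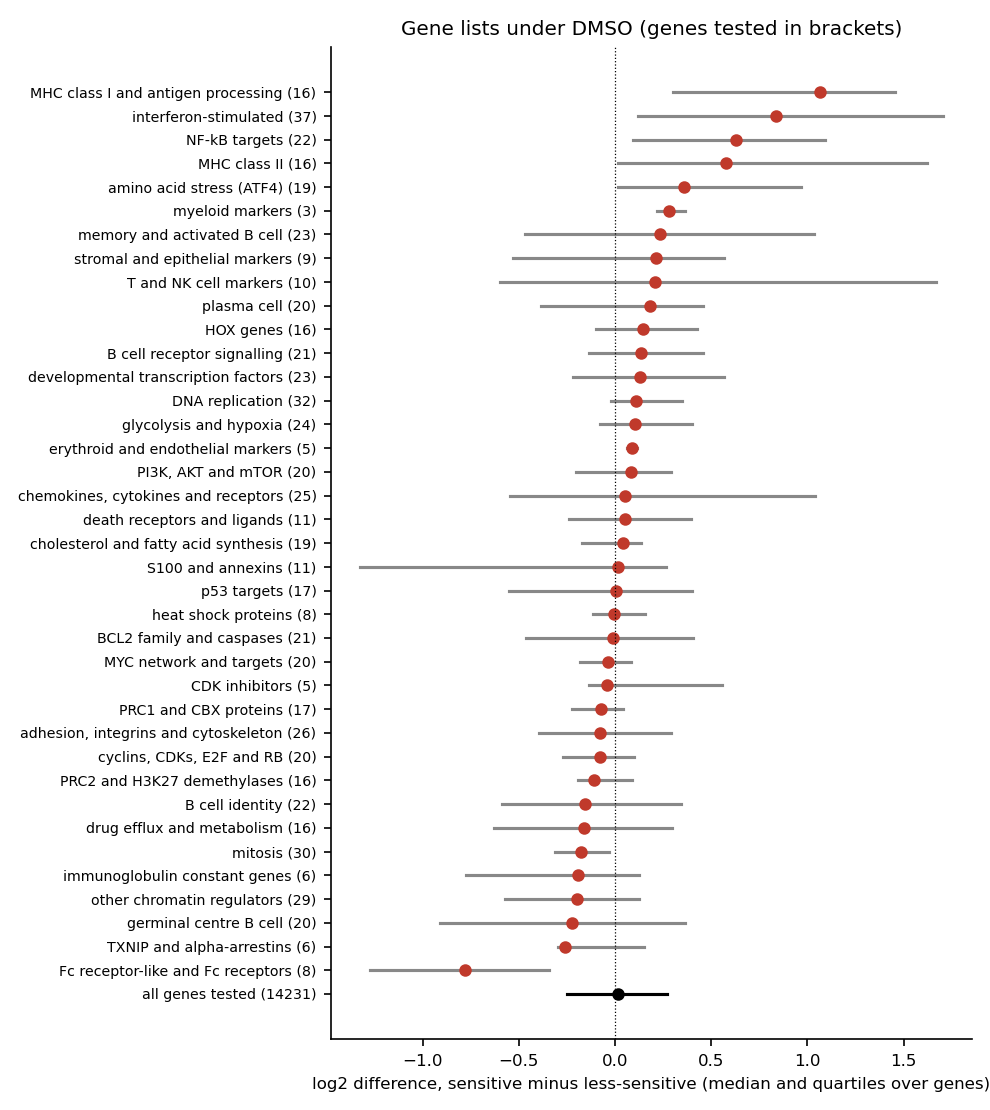
Median (point) and quartiles (line) of the log2 difference, sensitive minus less-sensitive lines under DMSO, over the tested genes of each of the 38 lists, with all genes at the bottom in black. MHC class I (1.07), interferon-stimulated (0.84), NF-kB (0.63) and MHC class II (0.58) lists lie to the right of all genes (0.013), and Fc receptor-like genes (-0.78, and -0.09 without Pfeiffer) to the left; the members of a list are not independent of each other.

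Within the mutant lines the order of gIC50 gave no called gene. A slope on log10 gIC50 in limma called 0 of 14231 genes, against 842 at an unadjusted p under 0.05. Among the leading genes ZNF256 had the smallest p, with 2.21 ± 0.44 log2 units per 10-fold lower gIC50 (adjusted p = 0.820), and Pfeiffer, at the lowest gIC50, was also its highest line (9.61). HACD4 had a slope of 2.94 and NIBAN3 of -2.13 (adjusted p = 0.820 for both).

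The wild type lines give a view outside the mutant group, with HT at a gIC50 of 516 nM, OCI-LY-19 at 1019 nM and Toledo at 13786 nM. HACD4 was low in all 3, at 4.79, 6.11 and 5.51, near the less-sensitive mutant lines. GSDMD was high in all 3, at 8.24, 9.22 and 9.03, near the sensitive ones, and CGAS likewise at 9.56, 9.83 and 8.18. NIBAN3 was low in HT (6.92) and OCI-LY-19 (7.75) and at 12.81 in Toledo. TCL1A was high in all 3 (11.76, 13.16 and 13.96). These genes thus showed different patterns in the lines without the mutation. Among the 332 genes higher without overlap in sensitive mutant lines, HT lay above both other wild type lines in 142 (42.8%) and below both in 96 (28.9%), where over all genes tested it did so in 33.6% and 37.3%. Among the 327 lower genes it lay above in 98 (30.0%) and below in 137 (41.9%). With 1 line at the low end there is no test of this.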

How the data were processed

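The authors summarised the Affymetrix arrays with MAS5, a method that treats each array by itself, per the submitters' processing notes, which name no version. They deposited log2 signals for 54675 probe sets on 40 arrays. After conversion to linear signals, the mean with 2% trimmed from both ends was 500 on each array. The number of arrays limits precision. Signals were brought to log2(signal + 17.72); fold changes on that scale understate those of dim genes. Each gene was represented by its brightest probe set with 1 symbol (41091 of them; 1801 had several and 11783 none) and tested if that lay above the array median on at least 2 of the 14 mutant DMSO arrays, which left 14231 of 19775 genes. A gene could thus enter the test through only the group in which it was high. The unit of replication was the line. limma 3.58.1 in R 4.3.3 fitted 4 against 3 line means with an intensity trend (5 residual and 2.41 prior degrees of freedom); tests were two-sided and ± is the SE of the fit unless SD is written. A single gene tested by exact permutation could not go below p = 0.0571. Named genes were those called, then genes without overlap and at least 1 log2 unit apart by p, up to 15 per direction, the 2 of smallest p in each of 38 lists, and a fixed set; other members were named after their values were seen. The members, groups and lists were chosen with earlier results of these data known. The scripts were tested on simulated data.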

Additional observations from a re-analysis of the deposited data

Results flagged for a closer look

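Among 114 named genes, 12 had 1 sensitive line far from the other 3 under DMSO, by a gap past Dixon's critical value for a group of 4; chance alone marks about 1 group in 20. Pfeiffer was low for ITGB2 (6.39, the others 12.09 to 12.76), FOS (4.56, the others 7.65 to 8.27) and CDKN2A (10.60, the others 11.98 to 12.26), and high for TNFRSF21 (7.76, the others 4.69 to 5.13). KARPAS-422 was high for MTHFD2 (13.99, the others 13.59 to 13.64) and ALAS2 (6.72, the others 6.09 to 6.18), and low for SC5D (9.66, the others 10.92 to 11.11) and HSPB1 (5.12, the others 8.59 to 9.18). WSU-DLCL2 was high for BACH2 (11.27, the others 5.76 to 6.46) and BCL2 (13.32, the others 5.71 to 6.11). SU-DHL-10 was low for ENO2 (4.496, the others 10.21 to 10.97) and high for EZH2 (12.33, the others 11.68 to 11.79). No named gene moved one way under GSK126 in every sensitive line and the other way in every less-sensitive line.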

How the results depend on the processing

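The count of genes called under DMSO, 2 as reported, was 0 with a pseudocount of 64, without the filter, with the mean of all probe sets, in the R7 lines alone, with the R tag as a block and for the slope on gIC50, and 0 to 4 when 1 line or replicate was left out. The 4 calls without SU-DHL-6 were MIR181A2HG, NIBAN3, RADX and ROBO1. With all 14 arrays and line as a random block 9 genes were called and 751 were under an unadjusted p of 0.05, and with the replicate block added 7 and 699; the slope gave 842. Same-numbered arrays of different lines did not deviate together (21 pairs of lines, correlation -0.086 to 0.073), so the number was not taken as a pairing. Genes under an unadjusted p of 0.05 numbered 358 to 536 when 1 line or replicate was left out, and no other setting moved them by over 1.5 times. Genes without overlap, 659 as reported, numbered 616 to 1696 in these omissions and 4645 in the R7 lines, since fewer lines overlap less often. Under GSK126 the 1 call became 0 with the mean of all probe sets, in the R7 lines and with the R tag as a block, and 0 to 3 with omissions. The distance contrast was -0.0199 to -0.00248 with omissions and 0.00513 in the R7 lines (exact permutation test, p = 0.667). The count of genes whose response differs stayed at 0 under each setting run. In 23 alternatives 0 of 1215 values of the 53 named genes under an unadjusted p of 0.05 changed sign, and 61 of 1393 values of the 61 others did. The R tag as a block rests on the R7 lines, because each other tag holds lines of 1 group only.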
